A study of Mus musculus with 15 samples.

Results

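The comparison is of adult mouse liver with neonatal mouse liver, the last step of a 5-stage series. It uses 6 of the 15 arrays of the series, chosen by their labels: neonatal replicates 1 to 3 and adult replicates 1 to 3. All were livers of strain C57BL/6. The adult mice were 8 weeks old, and the age of the neonatal mice in days is not given in the sources used here. No group carried a transgene, deletion or treatment that the labels name. TRIzol-extracted total RNA was depleted of rRNA, amplified with random primers along the length of the transcripts, labelled with Cy3 and hybridised to 1-colour Agilent arrays of probes for mRNAs and long noncoding RNAs. The other 9 arrays hold fetal liver of E12.5, E14.5 and E17.5, and they are used below only to place the 6 arrays in the time course. The labels do not say whether the 3 replicates of a stage were separate animals, so p-values measure only how these samples varied, and that variation may be technical.

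The liver changes its work around birth and weaning. In the fetus it is the main site of blood formation, and many of its cells are erythroblasts, which take up iron through the transferrin receptor. After birth blood formation moves to the bone marrow, hepatocytes slow their division, and the organ takes up adult duties in cholesterol, bile acid and glucose metabolism. Milk supplies the suckling pup with fat and cholesterol, and weaning replaces it with a diet rich in carbohydrate. Long noncoding RNAs are transcripts without a known protein product, and many are restricted to 1 tissue or stage.

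Signal was taken as log2 of the scanner software's processed signal minus the 75th percentile of that array, so a level of 0 is a probe at the 75th percentile and an increase of 1 is a doubling. A feature is a probe, or 1 probe per gene symbol where several map to it. Of 59705 features, 34581 were tested, those that the scanner software marked as well above background in each replicate of the neonatal stage, the adult stage or both. Of these, 28654 passed in both stages, 3366 passed in the adult arrays only and 2561 in the neonatal arrays only. Calls were made with limma at p under 0.05 after Benjamini-Hochberg adjustment over all 34581.

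Between neonatal and adult liver 13643 features were called, which is 39.5% of those tested. They divided into 7470 that rose (21.6%) and 6173 that fell (17.9%), and 4534 and 4421 of them respectively moved at least 2-fold. Groups of arrays that do not overlap were more common than calls, at 54.3% of all tested features. The median difference over all features was 0.18. Correlations over features, given as a description, were 0.9803 to 0.9833 among neonatal arrays, 0.9636 to 0.9846 among adult arrays and 0.8648 to 0.8949 between the stages. The number of arrays and their spread limit the precision: the median SD was 0.23 among neonatal and 0.31 among adult arrays.

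Adult replicate 2 stood apart from the other 5 arrays. It was the only one that the scanner software had not multiplicatively detrended, and its negative-control probes had a median of -6.02, against -5.33 and -5.43 in adult replicates 1 and 3 and -5.60 to -5.54 in the neonatal arrays. Without it, 17140 features were called. Without adult replicate 3 the count was 8517, and without neonatal replicate 2 it was 9080, so single arrays moved the count both ways. Over negative-control probes the stages differed by -0.02. Of these probes 8, 9.58 and 9.25% were marked well above background on adult replicates 1 to 3. On neonatal replicates 1 to 3 it was 4.25, 4.92 and 6.5%. The filter uses that mark, and whether this added to the features that passed in the adult arrays only was not tested. The excess of rising over falling features was not kept in every alternative. Of 28980 features tested with the authors' deposited values, 5551 rose and 5830 fell, and the median difference was 0.07. Both the values and the set of features differed there, and which of these mattered was not tested. When all 15 arrays entered the fit, 4836 of the same 34581 features rose and 4957 fell. That fit has a separate mean for each stage, so the differences and their median of 0.18 could not change. Its counts therefore do not show a shift in the differences.

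A gene symbol could be attached to 112 features through RefSeq accessions, and 71 of them were tested. They are not a sample of the liver's genes. None of the 5 hepatocyte markers looked for, Alb among them, and none of the 16 genes of hepatocyte function is among the named features, so the labelled tissue could not be checked against its defining markers. Of 10 cell types, 3 had a tested marker. Among the 71 genes, 16 rose, 15 fell and 40 were not called. All 31 called genes had adult arrays that did not overlap the neonatal arrays, beside 54.3% of all tested features. A call itself favours groups that do not overlap, so this adds nothing to the calls. The share that rose or fell is close to that over all features. Of the 31 calls, 20 held under every alternative tried, 11 were lost under at least 1 and none changed direction. The fits with all 15 arrays and the other filters on dim probes could not have changed a direction.

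**Figure D1:**
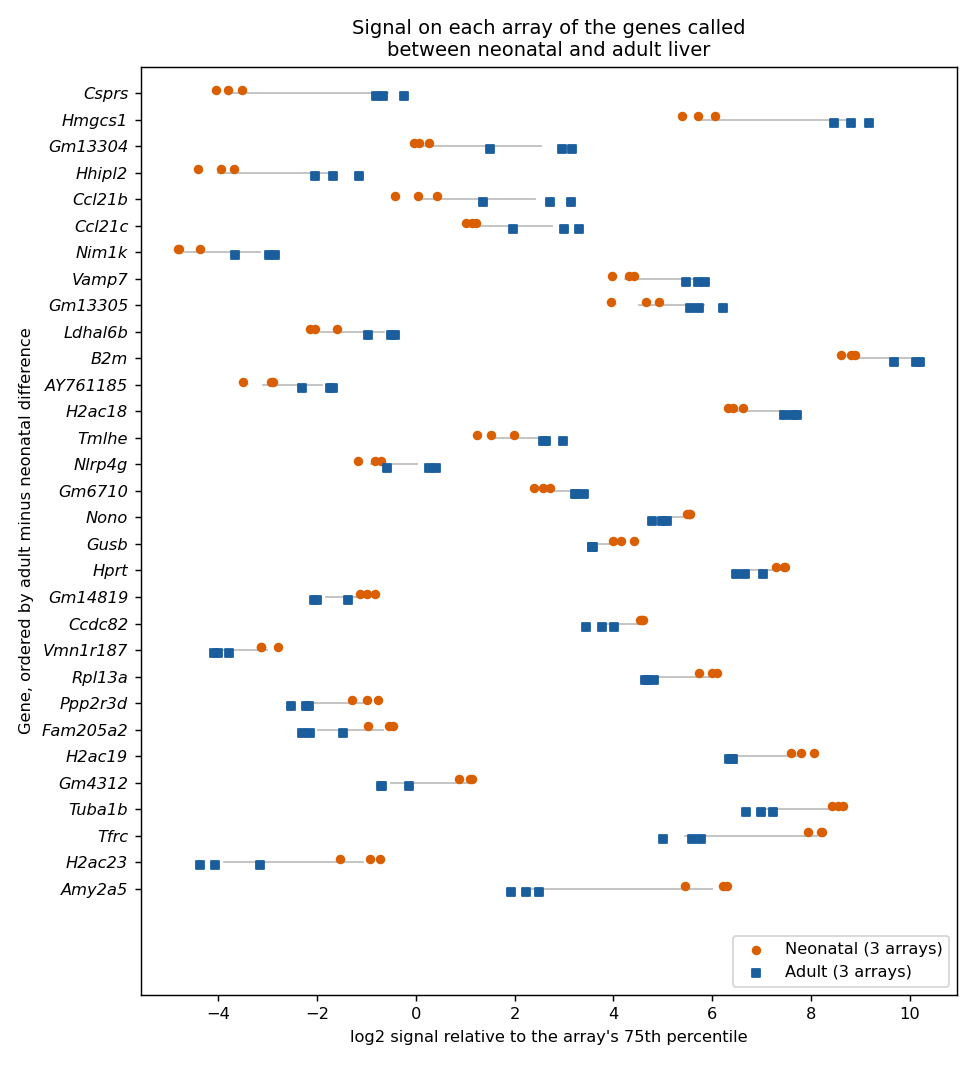
Level of the 31 called genes on each of the 6 arrays, in log2 units relative to the array's 75th percentile; orange circles are neonatal arrays, blue squares adult arrays, and grey lines join the stage means. No blue square lies among the orange circles of its gene; the longest lines are those of Amy2a5, which fell by 3.77, and of Csprs and Hmgcs1, which rose by 3.21 and 3.10.

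Among metabolic enzymes the clearest gain was in Hmgcs1, the cytosolic HMG-CoA synthase that makes the substrate of the rate-limiting reductase in cholesterol synthesis. Its level was 6.05, 5.39 and 5.71 on the neonatal arrays and 9.18, 8.47 and 8.81 on the adult arrays. The lowest adult array lay well above the highest neonatal array. Hmgcs1 rose by 3.10 ± 0.27 (log2, SE, n = 3 and 3), or 8.60-fold, with an adjusted p of 9.49e-05 (limma). The neonatal mean of 5.72 was below every fetal mean (6.97, 7.30 and 7.84 from the earliest to the latest), and the adult mean of 8.82 was above them. Hmgcs1 was the only 1 of 24 genes of cholesterol and isoprenoid synthesis that could be named on the array, so it speaks for itself and not for the pathway. In whole liver, here and below, a change in the number of cells of a type and a change in RNA per cell cannot be told apart.

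Amy2a5, a pancreatic alpha-amylase that digests starch, had the largest difference of the 31 called genes. Its level was 5.45, 6.29 and 6.21 on the neonatal arrays and 2.49, 1.93 and 2.23 on the adult arrays. All 3 neonatal arrays were far above the adult ones. It fell by 3.77 ± 0.28, or 13.6-fold (adjusted p = 4.82e-05), and its lowest adult array was still well above background. Before birth its mean had gone from -5.48 at E12.5, where no array was well above background, through -0.61 at E14.5 to 5.53 at E17.5. It was the only tested member of 12 acinar enzymes and of 7 amylases, which are near-identical copies. Whether its probe reads other amylases, or whether pancreatic tissue was present, was not tested.

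The remaining enzymes moved less. Tmlhe, which carries out the first step of carnitine synthesis and so serves fatty acid import into mitochondria, was at 1.99, 1.24 and 1.53 in neonatal and 2.97, 2.57 and 2.64 in adult liver. The groups did not overlap, and it rose by 1.14 ± 0.25 (adjusted p = 0.00973). Gk, the glycerol kinase that brings glycerol into glucose and lipid synthesis, was at 1.93, 1.21 and 1.36 against 2.59, 1.71 and 2.54. The groups overlapped, since adult replicate 2 was below the highest neonatal array, and the difference of 0.78 ± 0.31 was not called (adjusted p = 0.0779). Without adult replicate 2 it was 1.07 and was called (adjusted p = 0.0155), and it was also called with replicate number as a block (adjusted p = 0.0445). Replicate numbers do not pair the samples, so here and below a call with that block adds no weight. Tmlhe and Gk were the 2 of 14 genes of glycerol and lipid fuel use that could be named. Ldhal6b, a lactate dehydrogenase-like gene known from testis, rose by 1.29 ± 0.24 (adjusted p = 0.00515), from -1.60, -2.14 and -2.03 to -0.43, -0.50 and -0.97. Its call was lost with all 15 arrays in the fit (adjusted p = 0.0931), and under normexp its difference was 0.81.

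Tfrc, the transferrin receptor, fell. Its level was 8.19, 8.22 and 7.93 on the neonatal arrays and 5.77, 5.58 and 5.01 on the adult arrays. The stages were separated by a wide gap. Tfrc fell by 2.66 ± 0.25, or 6.32-fold (adjusted p = 0.000151), and the fetal means of 8.85, 8.82 and 8.55 were all above the neonatal mean. Tfrc was the only named gene among 21 of the erythroid and iron uptake list and the only tested marker of 5 for erythroblasts.

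Of 2 tested genes in the cytoskeleton list 1 fell, and the 1 tested gene in the ribosomal protein list fell, beside 17.9% of all features. So few genes do not speak for either list. Tuba1b, an alpha-tubulin of spindle and cytoskeleton, was at 8.64, 8.55 and 8.43 in neonatal and 7.22, 6.69 and 6.99 in adult liver. The groups did not overlap, and it fell by 1.57 ± 0.21 (adjusted p = 0.00101). It was the only named gene of 10 in the proliferation list. Rpl13a, a protein of the large ribosomal subunit, fell by 1.21 ± 0.20 (adjusted p = 0.00256), from 5.73, 6.10 and 5.99 to 4.64, 4.70 and 4.83. Actb, the other named cytoskeletal gene, was at 7.35, 7.20 and 7.14 against 6.98, 6.92 and 7.25 and was not called (-0.18 ± 0.19, adjusted p = 0.464).

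Of 4 tested histone H2A genes, 1 rose, 2 fell and 1 was not called, beside 21.6% rising and 17.9% falling over all features. H2ac18 and H2ac19 are neighbouring genes for the core histone H2A that run away from each other, with start sites 5123 bases apart on chromosome 3 in GRCm38.p6. Their 2 promoters are shown because the genes moved in opposite directions although their upstream sequence is largely the same. The pair was picked for display after the values were seen. RefSeq's promoter table listed 25 of the 31 called genes. Each sequence is the 250 bases before the RefSeq start site, read 5′ to 3′ on the strand of the gene, and the capitals mark the longest run that both share exactly, 169 bases.
H2ac18: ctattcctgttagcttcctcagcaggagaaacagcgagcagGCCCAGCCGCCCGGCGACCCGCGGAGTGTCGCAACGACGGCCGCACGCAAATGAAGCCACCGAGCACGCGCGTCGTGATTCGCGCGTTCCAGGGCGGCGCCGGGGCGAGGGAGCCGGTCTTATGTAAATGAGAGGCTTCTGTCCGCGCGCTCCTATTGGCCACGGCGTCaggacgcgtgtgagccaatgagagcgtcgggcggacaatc
H2ac19: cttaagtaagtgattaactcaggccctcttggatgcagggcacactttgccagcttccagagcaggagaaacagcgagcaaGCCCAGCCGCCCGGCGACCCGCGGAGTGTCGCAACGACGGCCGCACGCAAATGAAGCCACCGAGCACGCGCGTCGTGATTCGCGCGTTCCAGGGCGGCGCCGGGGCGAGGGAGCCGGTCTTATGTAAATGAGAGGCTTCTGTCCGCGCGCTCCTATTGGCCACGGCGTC
The first lies at chr3:96245247-96245496 on the plus strand and the second at chr3:96240375-96240624 on the minus strand. The shared run ends 40 bases before the start of H2ac18 and directly at the start of H2ac19.

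H2ac18 was at 6.32, 6.62 and 6.41 on the neonatal arrays and 7.72, 7.45 and 7.63 on the adult arrays. It rose by 1.15 ± 0.19 (adjusted p = 0.00314). H2ac19 was at 8.06, 7.80 and 7.60 on the neonatal arrays and 6.41, 6.33 and 6.40 on the adult arrays. It fell by 1.44 ± 0.20 (adjusted p = 0.0012). Neither gene's groups overlapped, and both calls held under every alternative. The divergence was not limited to the postnatal step. The stage means of H2ac18 were 2.67, 3.31, 5.51, 6.45 and 7.60 from E12.5 to adult, while those of H2ac19 were 8.52, 8.27, 7.81, 7.82 and 6.38. The genes are near-identical copies and the probe sequences were not used here, so which copy, or which part of the transcript, each probe reads was not tested.

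H2ac23, another core H2A gene, was at -0.72, -0.93 and -1.53 in neonatal liver and at -3.16, -4.37 and -4.07 in adult liver, where no array was well above background. For such probes only a bound on the fold is given. It holds under the scanner software's own background correction and can exceed the difference fitted under another correction. The bound sets the mean of the bright stage against a mean over arrays of the dim stage. For each of these it takes the probe's own signal or that array's dimmest well-above-background signal, whichever is higher. H2ac23 fell by at least 5.10-fold (fitted difference -2.81 ± 0.36, adjusted p = 0.000792). With normexp background correction (offset 50) in place of the scanner software's own, the fitted difference was -0.98 and still called. H2al2b, a testis-specific H2A variant, was at -1.71, -2.06 and -1.88 against -2.25, -2.19 and -1.47 and was not called.

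Among genes of the immune system, B2m, the shared light chain of MHC class I molecules, was at 8.88, 8.80 and 8.60 in neonatal and 10.13, 9.67 and 10.21 in adult liver. The groups did not overlap, and it rose by 1.25 ± 0.22 (adjusted p = 0.00381). Its mean was higher at each later stage, from 7.33 at E12.5 to 8.21 at E17.5 and on to the adult. No other gene of the 8 in the MHC class I list could be named.

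Of 5 tested genes in the chemokine list 4 rose, beside 21.6% of all features, but 3 of the 4 are copies of 1 gene and the other was listed only for its position. Ccl21b, a copy of the chemokine that draws CCR7-bearing T cells and dendritic cells to lymphatic vessels, was at -0.43, 0.05 and 0.42 against 1.37, 2.72 and 3.14. Ccl21c was at 1.14, 1.21 and 1.01 against 1.96, 3.0 and 3.31. Gm13304, which carries Ccl21 names among its RefSeq synonyms, was at -0.03, 0.27 and 0.07 against 1.51, 2.96 and 3.16. In all 3 genes adult replicate 1 was the lowest adult array, by more than 1 log2 unit, yet above every neonatal array. They rose by 2.39 ± 0.45, 1.63 ± 0.34 and 2.44 ± 0.41 respectively (adjusted p = 0.00528, 0.00807 and 0.00325). The 3 probes are for near-identical copies whose transcripts each may read, so they are not 3 separate measurements. Ccl21b and Ccl21c were also the only 2 tested of 5 markers for lymphatic endothelium and portal stroma.

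Gm13305, a predicted gene of the same stretch of chromosome 4, was at 3.96, 4.65 and 4.93 against 6.21, 5.55 and 5.73 and rose by 1.32 ± 0.30 (adjusted p = 0.0118). Its product is not established here. Ccl28, a chemokine of mucosal epithelia, was at -2.26, -2.74 and -1.81 against -2.01, -2.69 and -1.19. Its groups overlapped and it was not called (0.31 ± 0.40, adjusted p = 0.556). Nlrp4g, of a family of intracellular sensor proteins, was at -0.70, -1.17 and -0.82 against 0.27, -0.58 and 0.40 and rose by 0.93 ± 0.30 (adjusted p = 0.0409). That call was lost under 8 alternatives, 5 of which left out 1 array. AY761185 rose by 1.20 ± 0.26 (adjusted p = 0.00988), with 2 of 3 neonatal arrays well above background, and the call was lost with all 15 arrays in the fit (adjusted p = 0.0734). Under normexp its difference was 0.52.

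Vamp7, a SNARE protein of vesicle fusion with lysosomes and the cell surface, was at 4.42, 3.98 and 4.31 against 5.86, 5.71 and 5.46. It rose by 1.44 ± 0.21 (adjusted p = 0.00175), with the groups far apart for their spread. Csprs was at -3.52, -3.79 and -4.04 in neonatal liver, where no array was well above background, and at -0.67, -0.81 and -0.23 in adult liver. It rose by at least 7.28-fold (fitted difference 3.21 ± 0.24, adjusted p = 4.71e-05). Hhipl2, a relative of the Hedgehog-binding protein Hhip, went from -4.40, -3.94 and -3.67, none well above background, to -1.14, -2.03 and -1.68, at least 3.53-fold higher (fitted difference 2.39 ± 0.30, adjusted p = 0.000677). Nim1k, a protein kinase related to AMPK, rose by at least 1.22-fold (fitted difference 1.5 ± 0.27, adjusted p = 0.00427), again from neonatal arrays that were not well above background, and its call was lost with all 15 arrays (adjusted p = 0.288). Under normexp the fitted differences of Csprs, Hhipl2 and Nim1k were 1.46, 0.95 and 0.50 and were still called. Disp1, the transporter that releases Hedgehog proteins and the only other named gene of that pathway, was not called (0.10 ± 0.24, adjusted p = 0.746).

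The other genes that fell are mostly little studied. Gm4312 was at 0.88, 1.14 and 1.10 against -0.69, -0.13 and -0.71 and fell by 1.55 ± 0.23 (adjusted p = 0.00162). Fam205a2 was at -0.96, -0.46 and -0.55 against -1.47, -2.31 and -2.14 and fell by 1.32 ± 0.28 (adjusted p = 0.00804). Ppp2r3d, a regulatory subunit of protein phosphatase PP2A, was at -1.28, -0.99 and -0.77 against -2.53, -2.22 and -2.15 and fell by 1.29 ± 0.22 (adjusted p = 0.00333). It had 3 probes, with differences of -1.23, -1.34 and -1.29. Under normexp the differences of Fam205a2 and Ppp2r3d shrank to -0.66 and -0.60 and stayed called. Ccdc82 fell by 0.83 ± 0.21 (adjusted p = 0.0167) and Gm14819 fell by 0.83 ± 0.24 (adjusted p = 0.0279), and both calls were lost when single arrays were left out. Vmn1r187, a vomeronasal receptor gene, was at -3.14, -2.79 and -3.13 against -4.01, -4.09 and -3.78, with no adult array well above background, at least 1.33-fold lower (fitted difference -0.94 ± 0.20, adjusted p = 0.00922). Under normexp its difference was -0.07 and the call was lost (adjusted p = 0.725). The other 3 tested genes of the vomeronasal list were not called. Gm6710, the smallest of the 16 gains at 0.73 ± 0.19 (adjusted p = 0.0198), falls outside the rule of naming 15 genes per direction and is named after its value was seen to complete the set. Its call was lost under 4 alternatives, up to an adjusted p of 0.0694.

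Of 9 tested genes that are commonly used as references for RNA levels, 5 were called, beside 39.5% of all features. B2m rose, and Tfrc, Rpl13a, Hprt and Gusb fell. Hprt, a purine salvage enzyme, was at 7.29, 7.46 and 7.47 against 7.02, 6.48 and 6.67, and fell by 0.68 ± 0.21 (adjusted p = 0.0362). Gusb, the lysosomal beta-glucuronidase, was at 4.0, 4.41 and 4.15 against 3.57, 3.59 and 3.57, and fell by 0.61 ± 0.19 (adjusted p = 0.0388). Both calls were lost under several alternatives, up to an adjusted p of 0.122 for Hprt and 0.15 for Gusb, whereas B2m, Tfrc and Rpl13a kept theirs throughout.

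Gapdh, Ppia, Actb and Tbp were not called. Gapdh, a glycolytic enzyme, was at 9.56, 9.52 and 9.45 against 9.92, 9.57 and 9.94 (0.30 ± 0.20, adjusted p = 0.24). Ppia, a prolyl isomerase, was at 9.14, 9.21 and 9.07 against 9.48, 9.08 and 9.41 (0.19 ± 0.20, adjusted p = 0.462). Tbp, the TATA-binding protein, was at 2.12, 2.39 and 2.40 against 1.85, 1.93 and 1.91 (-0.41 ± 0.19, adjusted p = 0.117). The groups of Ppia and Actb overlapped. Gapdh was above every neonatal array in all 3 adult arrays, though barely (9.57 against 9.56), and Tbp was below. Such separation was found in 54.3% of all tested features. A missed threshold does not show that these genes held constant. Hsp90ab1, a cytosolic chaperone, was likewise lower without overlap, at 6.62, 6.78 and 7.04 against 5.49, 6.34 and 6.32, and was not called (-0.76 ± 0.28, adjusted p = 0.0631). It was called without adult replicate 2 (adjusted p = 0.0402), under normexp (adjusted p = 0.0278) and with the replicate block (adjusted p = 0.048). Nono, an RNA-binding paraspeckle protein, fell by 0.56 ± 0.19 (adjusted p = 0.044), a call lost under 9 alternatives.

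The widest spread among genes that were not called belonged to B020031M17Rik. It was at 1.83, -1.98 and -0.77 in neonatal and 1.98, 1.64 and 2.20 in adult liver. Neonatal replicate 1 lay with the adult arrays and the other neonatal arrays far below, so the difference of 2.25 ± 0.83 was not called (adjusted p = 0.0628). Without neonatal replicate 1 it was 3.31 and called (adjusted p = 0.00156). With all 6 arrays kept it was also called under normexp, with all 15 arrays, with those and slide as a block, and with the replicate block (adjusted p = 0.0239 to 0.0389). Of the 40 genes not called, 34 had overlapping groups, which the lack of a call itself favours. Over all tested features, called or not, the groups did not overlap in 54.3%.

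Many of the named genes lie in the same stretches of the genome, often with other genes between them, and genes of a stretch did not all move alike. Over all tested features 39.5% were called, so a stretch that mixes called and uncalled genes says little by itself. By the order of genes in RefSeq's GRCm38.p6 table, 34 of 63 placed genes fell into 9 groups with gaps of at most 1 Mb. The groups on chromosomes 5 and 7 held no called gene. On chromosome 13, Hmgcs1 and Nim1k rose while 6 others were not called, Ccl28, Zfp131 and B020031M17Rik (at 2.25) among them. On chromosome 1, Hhipl2 rose and Disp1, Brox, Aida, Mia3 and Taf1a, at -0.30 to 0.20, were not called. On chromosome 4, Gm13304, Gm13305 and Ccl21b rose and Fam205a2 fell. Only the groups of H2ac18 with H2ac19 and of Ccdc82 with Jrkl held no other RefSeq gene within their span, and Ccdc82 fell while Jrkl, at -0.22, was not called.

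**Figure D2:**
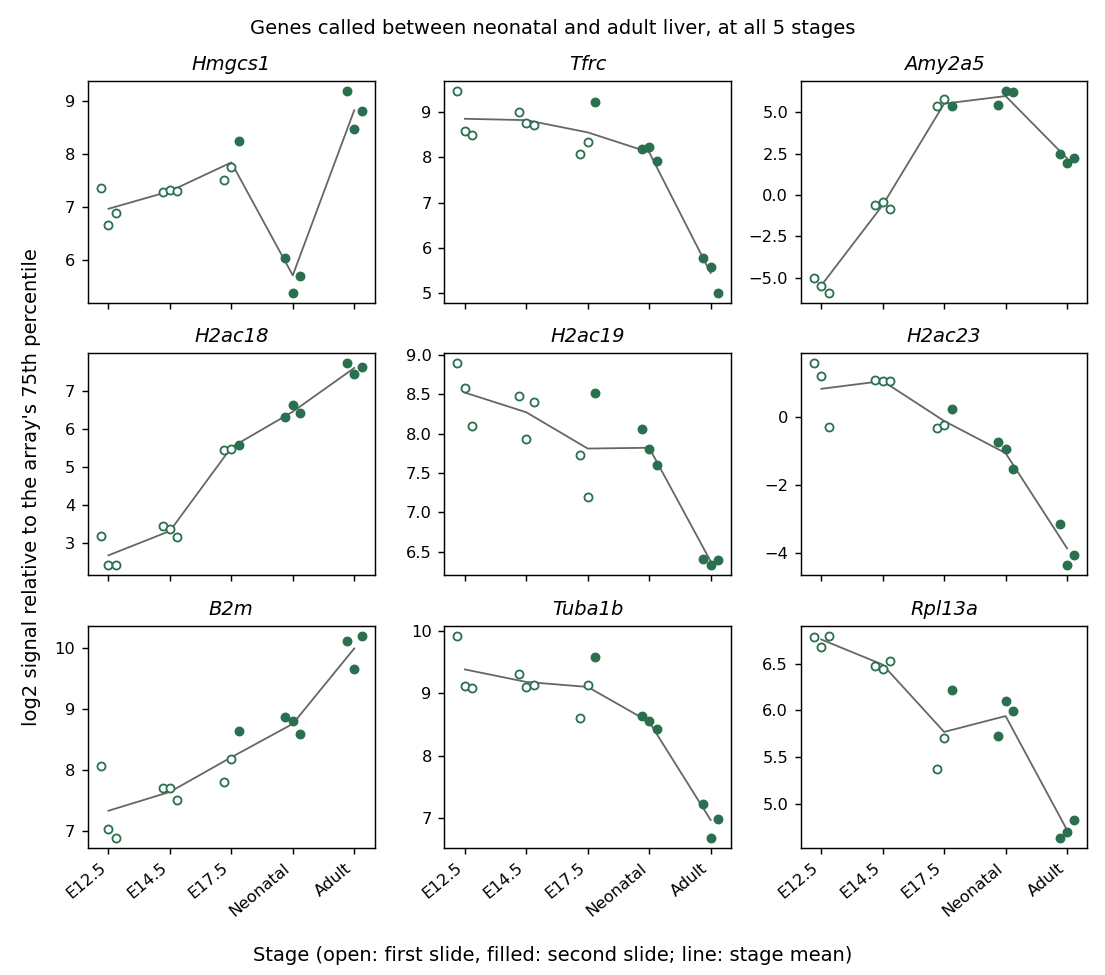
Level on each of the 15 arrays for 9 called genes, in log2 units relative to the array's 75th percentile, from E12.5 to adult; open circles are arrays of the first slide, filled circles arrays of the second, and lines join stage means. Hmgcs1 dips to 5.72 in the neonate before its adult level of 8.82, Amy2a5 peaks at 5.99 in the neonate, and H2ac18 is higher at each later stage while Tfrc and Tuba1b are lowest in the adult.

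Placed in the whole time course, most called features had their extreme in the adult. Of the 7470 that rose, 75.8% had their highest stage mean in the adult and 43.4% their lowest in the neonate. Of the 6173 that fell, 79.2% had their lowest mean in the adult, 38.4% their highest in the neonate and 32.6% at E12.5. Hmgcs1 is of the kind that was lowest in the neonate, Amy2a5 of the kind that peaked there, and Tfrc, H2ac19, Tuba1b and Rpl13a had their highest mean at E12.5. All fetal arrays except E17.5 replicate 3 lie on another slide than the neonatal and adult arrays, so for those steps stage and slide cannot be told apart. One of them, E17.5 replicate 1, had 55.8% of its negative-control probes well above background, against 4 to 9.58% on the other 14 arrays. These shares rest on means that include the neonatal and adult values which made the calls, and they are a description.

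Noncoding probes leaned further towards the adult than the array as a whole. Probes for long intergenic noncoding RNAs (lincRNAs) carry names of 3 kinds on this array: exons of lincRNA genes, mouse lincRNAs and human lincRNAs. A separate family reads ultraconserved elements, stretches of genome that are identical between human, mouse and rat, some of which are transcribed. Many lincRNA probes were dim, and only 2252 of 5365 were tested. Of these, 398 passed the filter through the adult arrays alone and 83 through the neonatal arrays alone, which favours the direction of the brighter stage, so shares are given for probes that were well above background on all 6 arrays. Of 1771 such lincRNA probes of all 3 kinds, 411 rose (23.2%) and 110 fell (6.21%), with a median difference of 0.42. Over all 28654 such features, 5654 rose (19.7%) and 4647 fell (16.2%), with a median of 0.16. With the probes that passed in 1 stage only, 610 lincRNA probes rose and 156 fell.

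The difference lay more in the share that fell than in the share that rose. Among lincRNA exons on all 6 arrays 305 of 1362 rose (22.4%) and 103 fell (7.56%). Of the mouse lincRNAs 44 of 152 rose (28.9%) and 1 fell (0.658%), and of the human lincRNAs 62 of 257 rose (24.1%) and 6 fell (2.33%). Ultraconserved elements had 50 of 219 rising (22.8%) and 26 falling (11.9%). Over the tested probes, those that rose outnumbered those that fell in each of the 4 families under all 11 alternatives. The same held on leaving out any 1 array. In ultraconserved elements the margin was as little as 36 to 35, with all 15 arrays in the fit. Except under the filter of all 6 arrays, these counts include probes that passed in 1 stage only, which favours the brighter stage. Over all features more also rose than fell, except with the authors' deposited values (5551 to 5830) and with all 15 arrays (4836 to 4957). No test of a family against the other features was made.

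**Figure D3:**
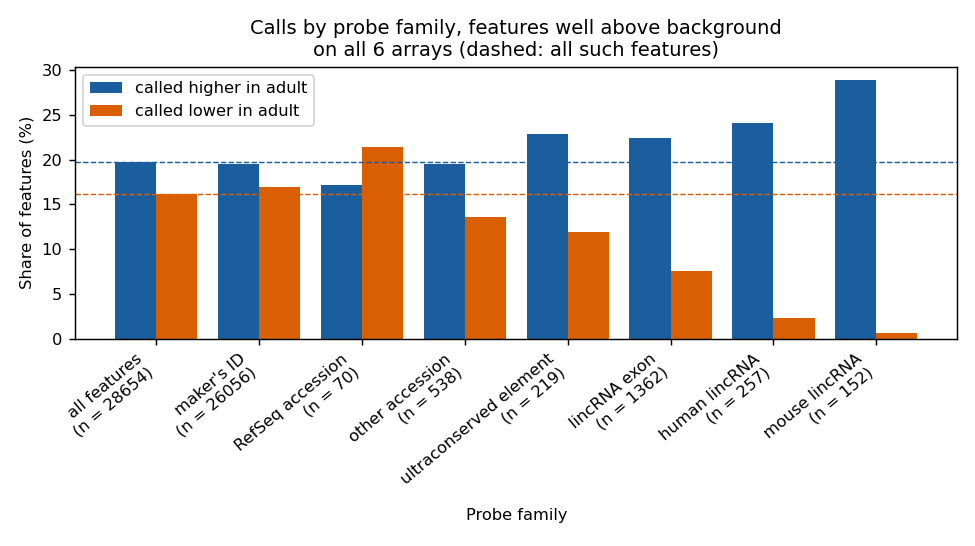
Share of features called higher (blue) or lower (orange) in adult liver, in percent, among features well above background on all 6 arrays, for each probe family with its number; dashed lines mark all such features at 19.7% and 16.2%. Mouse and human lincRNA probes have the tallest blue bars, at 28.9% and 24.1%, and the shortest orange bars, at 0.658% and 2.33%.

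The differences also varied with the level of the probe. Tested features were split into 3 equal groups (tertiles) by their mean level over the 6 arrays, and those well above background on all 6 arrays were described in each. Over all such features the median difference was 0.30 in the lowest tertile, 0.19 in the middle and 0.02 in the highest. For lincRNA exons it was 0.38, 0.36 and 0.34, for mouse lincRNAs 0.61, 0.64 and 0.59, and for human lincRNAs 0.49, 0.53 and 0.51. Ultraconserved elements went from 0.50 to 0.12, and in the highest tertile 5 of 51 rose (9.8%) and 14 fell (27.5%). Adult replicates 1 and 2 deviated from the adult mean in opposite directions at low and high levels alike. The medians were 0.16 and -0.15 in the lowest tertile and 0.12 and -0.11 in the highest. Over all tested lincRNA exons, the median was 0.29 without adult replicate 1 and 0.56 without adult replicate 2.

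**Figure D4:**
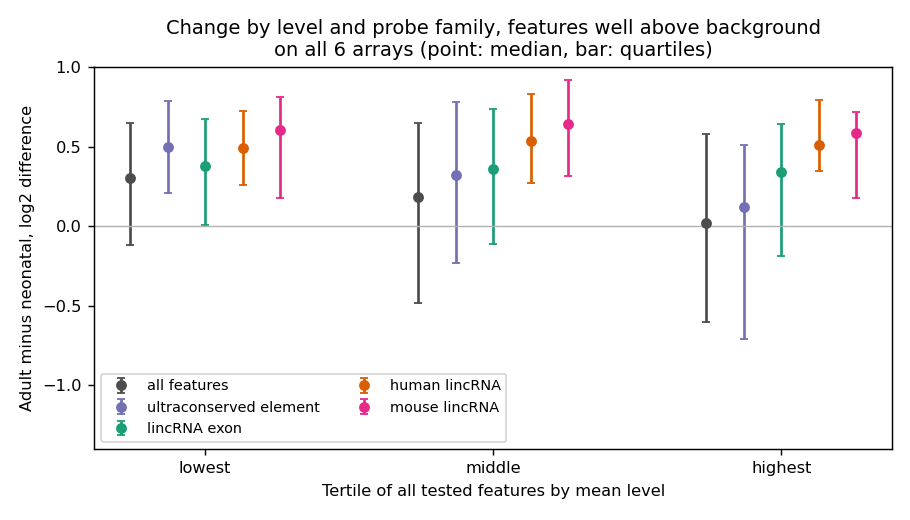
Median and quartiles of the adult minus neonatal log2 difference for features well above background on all 6 arrays, in the lowest, middle and highest tertile of mean level, for all such features and 4 probe families. The medians of all features fall from 0.30 to 0.02 across these tertiles, while those of lincRNA exons run from 0.38 to 0.34.

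Single noncoding probes changed by far more than these medians. Among lincRNA exons that were well above background on all 6 arrays, MM9LINCRNAEXON10104-_P1 was at 1.02, 0.72 and 0.27 in neonatal and 5.85, 5.56 and 5.82 in adult liver, a gain of 5.07 ± 0.24 (adjusted p = 4.8e-06). The largest fall among them was in MM9LINCRNAEXON10517+_P1, at 3.59, 3.85 and 3.56 against -2.82, -3.04 and -2.96, a difference of -6.61 ± 0.19 (adjusted p = 4.87e-07). Both were far outside the spread of their stages, and MM9LINCRNAEXON10517+_P1 had fetal means of 4.36 to 4.84. MM9LINCRNAEXON10291-_P1 rose by 4.69 and MM9LINCRNAEXON11268+_P1 by 3.49, while MM9LINCRNAEXON11508-_P1 fell by 3.53. MM9LINCRNAEXON10174-_P1 fell by 3.36, in a fit that dropped the neonatal replicate 2 spot as an outlier.

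The same rule (called, well above background on all 6 arrays, stages not overlapping) was applied to the other families. The mouse lincRNA probes with the largest gains, picked from 152, changed less than these exons, picked from 1362. They were mouselincRNA1623-_P1 at 1.65 ± 0.22, mouselincRNA1337-_P1 at 1.52 ± 0.21 and mouselincRNA0315-_P1 at 1.48 ± 0.29. Only mouselincRNA1103-_P1 met the rule for a fall, at 0.57, 0.57 and 0.35 against -0.35, -0.86 and -0.59. It dropped by 1.10 ± 0.21 (adjusted p = 0.00562) from levels already below the fetal means of 2.27 to 3.56. Of the human lincRNA probes that met the rule, humanlincRNA0289+_P1 rose by 2.56 ± 0.37 and humanlincRNA1596+_P1 by 2.10 ± 0.29, while humanlincRNA1151+_P1 fell by 1.88 ± 0.28 and humanlincRNA0998+_P1 fell by 1.75 ± 0.24. The calls of humanlincRNA0111+_P1, up by 1.90 ± 0.59 with neonatal arrays from -1.18 to 1.48, and of humanlincRNA1006-_P1, at -1.14 ± 0.29, were lost when single arrays were left out, the first also with no filter on dim probes.

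Ultraconserved elements changed by up to 2.35 among those bright on all 6 arrays. The element uc.83+ was at -1.66, -1.75 and -1.53 against 0.85, 0.43 and 0.82 and rose by 2.35 ± 0.21 (adjusted p = 0.000106), from a mean of -5.35 at E12.5. The probes uc.286- and uc.188- rose by 1.74 and 1.72, the first of them losing its call with all 15 arrays in the fit, with and without slide as a block (highest adjusted p = 0.0628). Losses were of the same size. The probes uc.313-, uc.136+ and uc.74- differed by -2.33 ± 0.23, -2.24 ± 0.23 and -2.21 ± 0.20, and in none did a neonatal array reach down to an adult one.

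Larger still were changes of probes known only by a transcript accession or the maker's ID, picked from 538 and 26056 respectively. ENSMUST00000121460 was at -1.95, -2.42 and -2.22 in neonatal and 10.05, 9.72 and 10.34 in adult liver, a gain of 12.24 ± 0.24 (adjusted p = 8.47e-08). The neonatal values were near the fetal means of -1.73 to -1.32. BY214431_P1 rose by 5.72 and uc008sno.1 by 3.55. ENSMUST00000168749 fell by 4.44 from levels of 8.06 to 8.09, uc007prv.1 fell by 4.21 and AK038804_P1 fell by 4.07. Of the probes with the maker's ID alone, ASMM9PARTA021544 rose by 12.52 and ASMM9PARTA024109 by 11.91, and ASMM9PARTA015797 and ASMM9PARTA015259 differed by -10.84 and -10.50. The files used here do not pair these 4 IDs with a gene.

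Many noncoding elements carry 1 probe for each strand, and in a minority of the tested pairs the strands changed unequally. Of 3157 such pairs, 585 had both probes tested. In 110 of them (18.8%) the change of the plus strand differed from that of the minus strand (limma on the within-array difference of the strands, adjusted over the 585 pairs), with the plus strand gaining on the minus in 73 and the reverse in 37. Over all tested features 39.5% were called, 21.6% rising and 17.9% falling, so 1 called strand alone does not show unequal change. Counted by single-probe calls, both strands rose in 46 pairs, both fell in 8, 1 strand alone was called in 254, and the strands were called in opposite directions in 9. All 9 were among the 110. Both probes were well above background on all 6 arrays in 364 of the 585 pairs, in 55 of the 110 and in 4 of the 9. Plus and minus in these names are strands of the genome and not sense and antisense of a known gene.

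**Figure D5:**
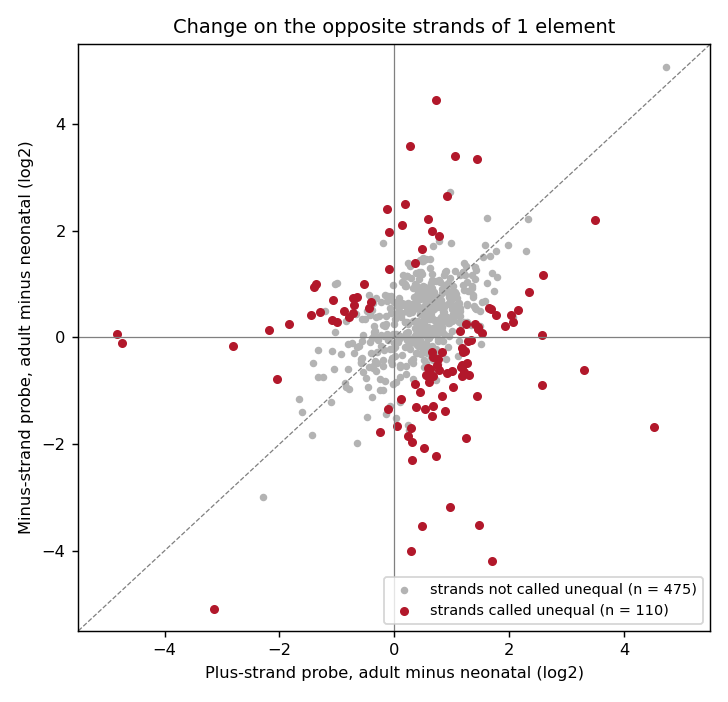
Adult minus neonatal log2 difference of the minus-strand probe (vertical) against that of the plus-strand probe (horizontal) for 585 elements; red points are the 110 pairs whose strands were called unequal, grey points the other 475, and the dashed line marks equal change. Most grey points gather just above 0 on both axes, and red points spread along both axes and into the quadrants of opposite change.

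The clearest opposite pair was MM9LINCRNAEXON11508_P1, in which both probes were well above background on all 6 arrays. Its plus strand was at 1.57, 1.42 and 1.5 in neonatal and 3.23, 2.73 and 2.96 in adult liver. Its minus strand was at 1.44, 1.82 and 1.48 in neonatal and -1.87, -2.19 and -1.77 in adult liver. Neither strand's stages overlapped, and they moved in opposite directions, the plus strand by 1.48 and the minus strand by -3.53, a strand difference of 5.0 ± 0.27 (adjusted p = 1.98e-05). In MM9LINCRNAEXON11011_P1 the plus strand was not well above background on any neonatal array and rose by at least 1.72-fold, and the minus strand was not well above background on any adult array and was at least 4.07-fold lower there. Its probes thus passed the filter through opposite stages, which by itself favours opposite directions.

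In the other pairs named by rule only 1 strand was called. In uc.213 the plus strand went from -5.56, -5.48 and -5.72, none well above background, to -0.82, -1.24 and -1.14, at least 5.16-fold higher, while the minus strand, at -1.68 ± 0.66, was not called (adjusted p = 0.0749). In MM9LINCRNAEXON12103_P1 the plus strand fell by 4.83, with 1 of 3 adult arrays well above background, and the minus strand, at 0.07, was not called. In MM9LINCRNAEXON11808_P1 the plus strand was at least 18.3-fold lower on adult arrays, none of which was well above background, and the minus strand, at -0.11, was not called. In MM9LINCRNAEXON10834_P1 the minus strand rose by 4.45, with 1 of 3 neonatal arrays well above background, and the plus strand, at 0.72, was not called. Except for MM9LINCRNAEXON11508_P1, the size of these strand differences rests on a probe that was not well above background on every array. In uc.213 the plus probe passed the filter in the adult arrays only and the minus probe in the neonatal arrays only, which also favours opposite directions. Each of the 6 was called under every alternative run for the pairs, MM9LINCRNAEXON10834_P1 with a highest adjusted p of 0.0499. None of those alternatives changed the filter on dim probes. The other 7 opposite pairs, named after their values were seen, were uc.195, uc.420, MM9LINCRNAEXON10896_P1, MM9LINCRNAEXON10900_P1, MM9LINCRNAEXON10930_P1, MM9LINCRNAEXON11509_P1 and MM9LINCRNAEXON12014_P1. The plus strand gained in all of these except the last, and the strand difference of uc.420 was lost on leaving out any of 4 arrays.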

How the data were processed

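Agilent Feature Extraction scanner files were analysed, 1 per array, whose gProcessedSignal column holds background-corrected intensity, per the file headers. The software version is 11.0.1.1 per the file headers and 10.7.3.1 per the submitters' processing notes, and the probe grid is named for mm9. A value table that the authors deposited gives these arrays' log2 values for 29158 probes. Its normalization is not given in the sources used here, and it served as an alternative.

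Control spots and outlier spots were left out, replicate spots averaged, log2 taken and the 75th percentile over noncontrol probes of each array subtracted. Stages were compared on the 6 arrays alone (no covariates), since both lie on 1 slide, with lmFit and eBayes of limma 3.58.1 in R 4.3.3, two-sided, Benjamini-Hochberg adjusted over all features, and called below 0.05. The code was tested on simulated data with few changed features: it recovered the simulated differences closely on average but called few of the smaller and only part of the larger ones, missing a first target for calls, so the target was changed to accurate mean differences and few false calls. A feature not called here may still differ. Symbols came from RefSeq accessions (116 of 123 matched). Where a gene had several probes, 1 was reported. Promoters came from RefSeq (GRCm38.p6).

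Same-numbered replicates did not pair: deviations from the stage means correlated at 0.12, -0.0081 and -0.082. Named were called gene symbols (up to 15 per direction, by size), the 3 highest and lowest called features of each noncoding and other-accession family (2 for the maker's IDs) that were well above background on all 6 arrays without overlap, and the 3 largest called strand differences each way. The members, lists, rules and the choice of the 6 arrays were made with earlier results of these data known. Alternatives covered scaling, background, the dim-probe filter, the samples in the fit and single arrays.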

Additional observations from a re-analysis of the deposited data

How the results depend on the processing

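Counts of calls within 1.5 times the reported ones are not listed. On leaving out 1 array at a time, the features called ranged from 8517 to 17140, the noncoding ones from 449 to 1133, lincRNA exons from 349 to 829, mouse lincRNAs from 38 to 109, human lincRNAs from 60 to 194, ultraconserved elements from 63 to 160 and strand pairs from 59 to 128, each highest without adult replicate 2 and with 1 array fewer in the fit. With all 15 arrays in the fit, 482 noncoding features, 380 lincRNA exons, 34 mouse lincRNAs, 67 human lincRNAs and 71 ultraconserved elements were called. In the authors' deposited value table, which holds fewer probes, 41 mouse and 73 human lincRNAs were called, and with the filter of all 6 arrays well above background 78 human lincRNAs. The cause was not tested beyond these changes in the number of arrays or probes. With replicate number as a block, 12990 features (7081 up, 5909 down) and 104 strand pairs were called; replicate numbers do not pair the samples here. Of the 13643 called features, 11 changed sign under normexp and 2 of the 10936 that the authors' table holds did so there, none of them called in that setting; no gene, probe or strand pair named in the text was among the reversals. Background subtraction without multiplicative detrending (13614 calls) and a background from negative-control probes (13251 calls) were chosen after seeing the data. The planned correction with the detrending column, and normexp on mean signals, were not run because the files used here lack those columns; normexp used median signals. Under normexp the differences of Vmn1r187, Nim1k, H2ac23, Hhipl2, Gm14819, AY761185, Csprs, Ppp2r3d, Fam205a2 and Ldhal6b moved by more than 1.5 times. Signal over background limits such dim probes, but normexp was also run with an offset of 50 added to every signal. That offset by itself makes the log2 differences of dim probes smaller. Which of these moved the values was not tested.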
